A study of Homo sapiens with 8 samples.

Results

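The proteasome subunit and assembly genes described here were the protein-coding genes whose symbol starts with PSMA, PSMB, PSMC, PSMD, PSME, PSMF or PSMG and that had at least 10 counts in at least 2 libraries. 47 genes met this rule, of 60617 genes in the count table. They comprised 14 subunits of the core particle, 17 subunits of the cap, 7 assembly factors, 5 genes for other activators and an inhibitor, 2 beta subunits of the immunoproteasome, and 2 genes, PSMC3IP and PSME3IP1, that carry a matching symbol but encode no proteasome part. The libraries were poly(A)-selected RNA-seq libraries of MCF-10A, an established line of human breast epithelium that forms no tumours, grown with epidermal growth factor, insulin, hydrocortisone and cholera toxin. 2 derivatives of it, named Empty and NeuT, were each left untreated or given 1 µM JG-98, an inhibitor of the chaperone Hsp70, for 12 h, with 2 libraries in each of the 4 groups. The series text speaks of transformed cells, but the labels say neither what the Empty and NeuT cells carry nor whether each is a clone or a pool, and they name no separate cultures. P-values therefore measure only the spread between these libraries, and a difference between the lines cannot be told apart from any other difference between the 2 cell populations.

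The proteasome is the protease complex that degrades proteins tagged with ubiquitin in the cytosol and nucleus. Its core is a barrel of stacked rings, in which the outer alpha rings gate the entrance and the inner beta rings hold the catalytic sites of PSMB5, PSMB6 and PSMB7. The cap docks on the barrel: a ring of ATPases in its base (PSMC1 to PSMC6) unfolds the substrate, PSMD4 and other base subunits bind ubiquitin chains, and the lid holds PSMD14, which removes them. Dedicated assembly factors, PSMG1 to PSMG4 for the core and PSMD5, PSMD9 and PSMD10 for the base, bind intermediates and leave the finished particle. Under interferon signalling many cells also make the immunoproteasome subunits PSMB8, PSMB9 and PSMB10 and the activator subunits PSME1 and PSME2, while the factor NFE2L1 is known to raise transcription of the core and cap genes when proteasome activity falls. Hsp70 hands misfolded proteins to refolding or to this degradation route.

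Each library held between 37341458 and 56861971 counts, the lowest in Empty with JG-98 replicate 1, and the 47 genes took between 0.596% and 0.731% of them. Levels are given as CPM, the counts of a gene per 1000000 counts of the library, after scaling by the trimmed mean of M-values (TMM), and differences as log2 with the standard error (SE). All 11 epithelial markers examined were at 1 CPM or more in every library, and the 5 leukocyte markers summed to at most 0.564 CPM. Some epithelial markers moved with the line, in both directions. EPCAM lay between 196 CPM and 223 CPM in Empty and between 93.5 CPM and 101 CPM in NeuT, and KRT17 was also lower in NeuT. KRT5 lay between 4958 CPM and 5518 CPM in Empty and between 6974 CPM and 8055 CPM in NeuT, and TP63 was also higher in NeuT. The 3 endothelial markers summed to a mean of 12.7 CPM in untreated Empty and 9.68 CPM in untreated NeuT, and at most 15.1 CPM, nearly all in PECAM1, while VWF and CDH5 stayed at or below 0.333 CPM and 0.621 CPM. The 4 hormone-responsive luminal markers summed to between 57.1 CPM and 65.8 CPM. The 5 fibroblast markers summed to a mean of 9.02 CPM in untreated Empty and 78.9 CPM in untreated NeuT. That rise was in DCN, which ranged from 2.47 CPM to 3.58 CPM in Empty and from 62.4 CPM to 77.5 CPM in NeuT. The other 4 did not follow it: over all 8 libraries COL1A1 ranged from 4.7 CPM to 5.83 CPM, PDGFRB from 0.229 CPM to 0.817 CPM and COL1A2 from 0.0548 CPM to 0.262 CPM, and PDGFRA was at most 0.0525 CPM. The 6 proliferation markers summed to a mean of 1368 CPM in untreated Empty and 577 CPM in untreated NeuT. These values move with the line, and their part in the line differences below was not tested.

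Divided by the length of the exons, the core had the highest class median. It was 74.8 CPM per kb over the 8 libraries, against 32.6 CPM per kb for the cap. The assembly factors were at 18.9 CPM per kb and the activators and inhibitor at 22.2 CPM per kb. The core median rested on the beta ring, whose genes lay between 73.4 and 123 CPM per kb. The alpha genes other than PSMA7 lay between 1.89 and 35.9 CPM per kb. The length counts all annotated exonic bases, 7479 for PSMC6 and 1447 for PSMB6, and its part in the class order was not tested. The highest levels per length were those of PSMA7, an alpha subunit, at 145 CPM per kb, PSMD8 of the lid at 137, PSMD2 of the base at 127 and PSMB7 at 123. Low values need care, because 12 of the 47 genes share more than 10% of their exonic bases with another gene and the sources used here do not say whether the counting used strand or how reads in shared bases were treated. Among the genes with no shared base the core median was 90.1 CPM per kb (11 genes) and the cap median 40.4 CPM per kb (11 genes).

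**Figure D1:**
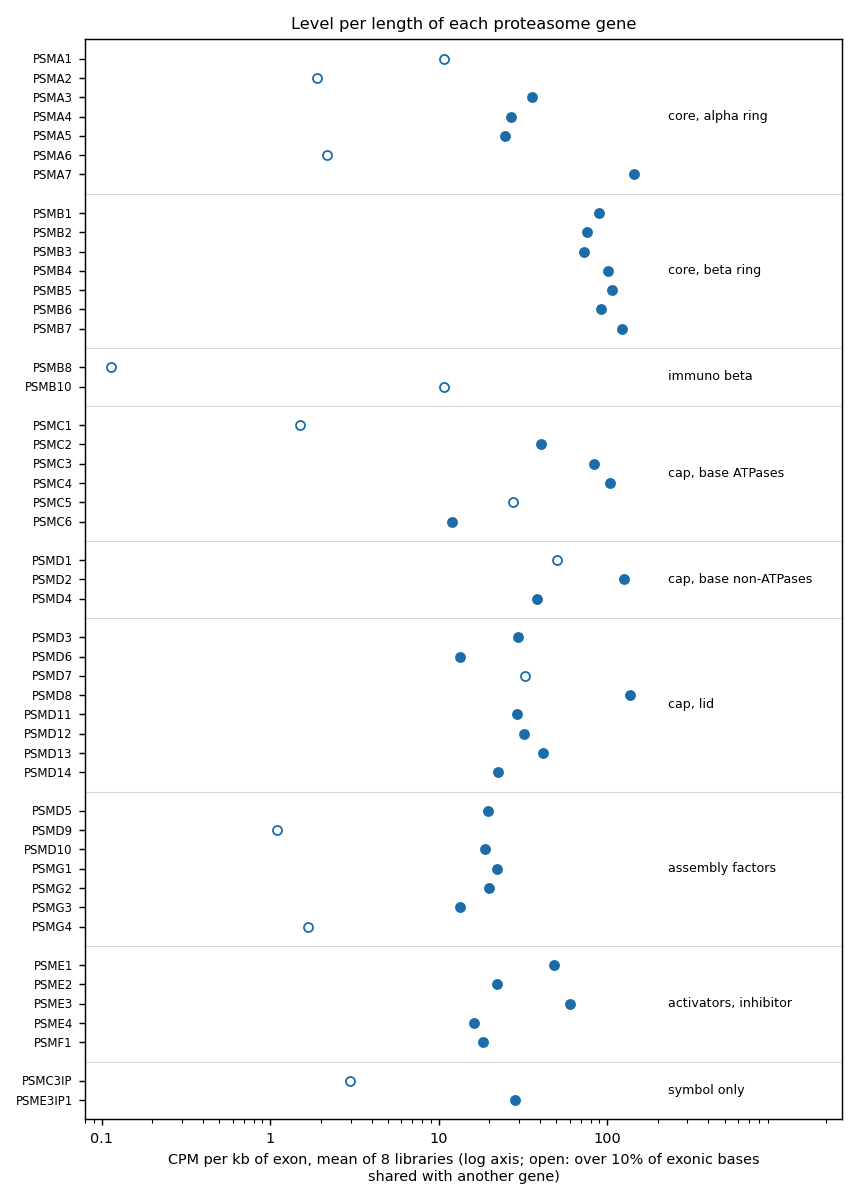
Each point is the level per length of 1 gene, as TMM-scaled CPM per kb of exon averaged over the 8 libraries, on a log axis, with genes grouped by class and open points for genes that share over 10% of their exonic bases with another gene. The core genes without shared bases lie at 24.8 CPM per kb or above, while PSMA1, PSMA2 and PSMA6, PSMC1, PSMD9 and PSMG4, all with shared bases, lie below most others of their class.

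PSMC1, an ATPase of the base, is the clearest case of an uncertain level. It had 3917 counts in all, 76.1% of its exonic bases are shared with NRDE2 on the other strand, and its processed copy PSMC1P1, which matches it over 1320 bases at 99.9% identity, had 32986 counts, 8.42 times as many. The copy stood at 86.6 CPM and 83.9 CPM in untreated Empty and at 66.5 CPM and 71.3 CPM in untreated NeuT, so its counts were lower in NeuT, as were those listed under PSMC1. Of the 44 pseudogenes with a matching symbol, 18 had no count and 7 had at least 1000 counts. For the immunoproteasome the table is incomplete: PSMB8 passed the rule with 12 to 29 counts a library and PSMB9 had 0, but of the 8 other protein-coding neighbours within 100000 bases of PSMB8 on chromosome 6, 7 were at 0 and the highest had 15 counts over all libraries. The levels of PSMB8 and PSMB9 are therefore not read as a lack of expression. Just outside the rule lay PSMB11, the thymus-specific beta subunit, with 2 counts in all, and PSMA8, the testis-specific alpha subunit, with 0.

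NeuT cells had less mRNA for most cap subunits and more for PSMB10, PSME1 and PSME2 than Empty cells. In untreated cells 30 of the 47 genes differed between the lines at an adjusted p under 0.05 (edgeR quasi-likelihood test, Benjamini-Hochberg adjustment over the 17693 genes tested), 22 of them lower and 8 higher in NeuT. The same test called 42.0% of all genes. As shares of all genes, 20.8% were called lower and 21.2% higher. Among the 47 genes the share called lower was above this background and the share called higher was below it. The median log2 difference was -0.15 over the 47 genes and -0.02 over all genes tested. With JG-98 in both lines, which uses the other 4 libraries, 34 of the 47 genes differed, 29 lower and 5 higher, where 41.7% of all genes were called, 20.0% lower and 21.7% higher. The median was then -0.23 over the 47 genes and 0.00 over all genes. 21 genes were lower in NeuT in both comparisons, 5 were higher in both, and 9 were called in neither. In bulk RNA, fewer cells that express a gene and less RNA per cell cannot be told apart.

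**Figure D2:**
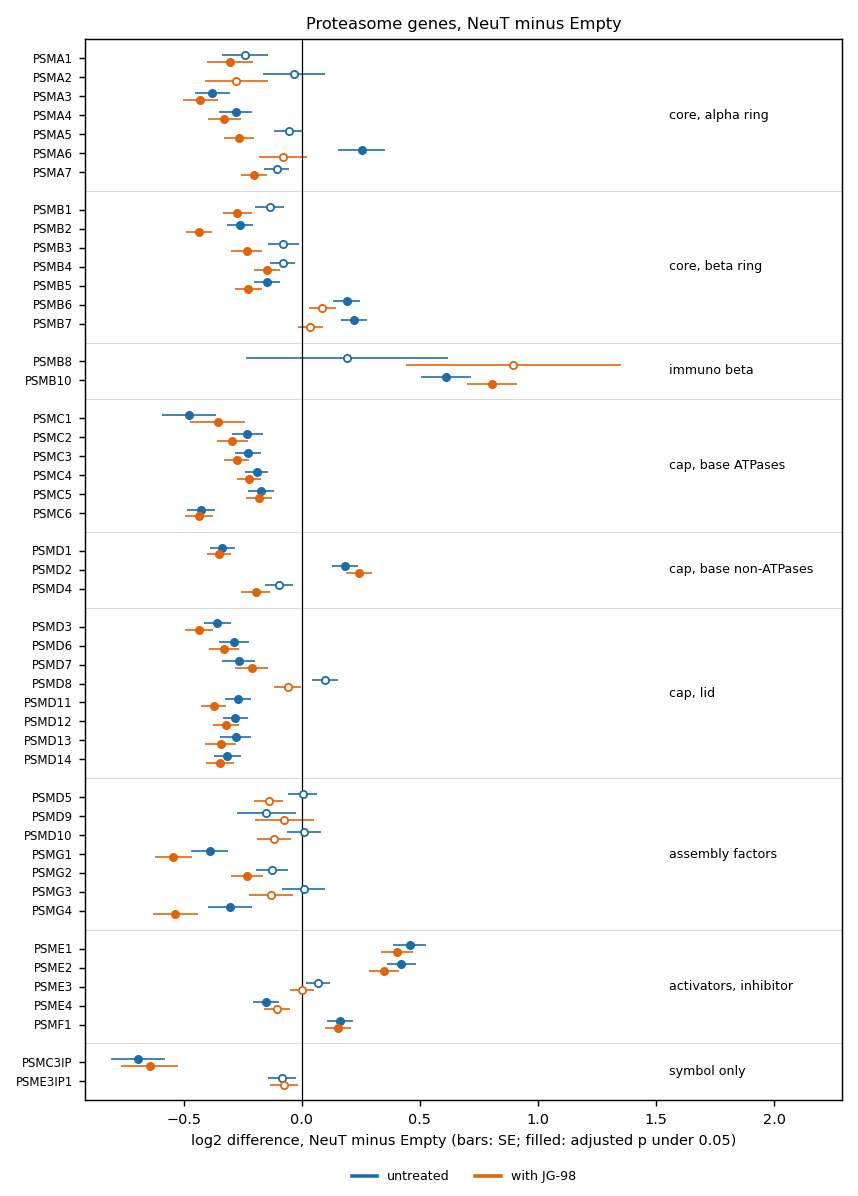
Each row is 1 gene, with the log2 difference of NeuT minus Empty on the x axis in untreated cells (blue) and with JG-98 (orange), bars for the SE, and filled points where the adjusted p is under 0.05. The ATPases and the lid lie left of 0 except for PSMD8 in untreated cells, while PSMB10, PSME1, PSME2, PSMF1 and PSMD2 lie right of 0 in both comparisons.

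In the cap nearly every gene was lower in NeuT. In untreated cells 14 of its 17 genes were lower in NeuT and 1, PSMD2, was higher. With JG-98 15 were lower and PSMD2 was again higher. Over all genes the shares called lower were 20.8% in untreated cells and 20.0% with JG-98. In either direction they were 42.0% and 41.7%. The median difference of the cap was -0.27 in untreated cells and -0.32 with JG-98. All 6 ATPases were lower in both comparisons, by 0.17 to 0.48 on the log2 scale in untreated cells and by 0.18 to 0.44 with JG-98. In untreated cells leaving out 1 library ended the call of 5 of the 6 in at least 1 of 8 fits: PSMC5 was called in 4 (edgeR adjusted p at most 0.141), PSMC4 in 5 (at most 0.0798), PSMC2 in 6 (at most 0.128) and PSMC3 and PSMC1 in 7 each (at most 0.0856 and 0.0624). With JG-98 PSMC5 and PSMC1 were called in 6 of 8 (at most 0.0905 and 0.164), and PSMC6 was called in all 8 fits of both comparisons. Across the alternative fits with no minimum size, between 10 and 15 cap genes were called lower in untreated cells and between 11 and 15 with JG-98.

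PSMC6, an ATPase of the base on chromosome 14, had the largest difference among the cap genes that share no exonic bases. It stood at 104 CPM and 105 CPM in untreated Empty, 103 CPM and 99.5 CPM in Empty with JG-98, 75.0 CPM and 80.1 CPM in untreated NeuT, and 77.2 CPM and 72.5 CPM in NeuT with JG-98. All 4 NeuT libraries lay below all 4 Empty libraries. The log2 difference was -0.43 ± 0.06 (SE, edgeR adjusted p = 1.93e-05), a level 25.6% lower, in untreated cells and -0.44 ± 0.06 (adjusted p = 1.56e-05) with JG-98. Counts listed under PSMC1 differed by -0.48 ± 0.12 (adjusted p = 0.00286) and -0.36 ± 0.12 (adjusted p = 0.0201). They stood at 11.4 CPM and 9.83 CPM in untreated Empty, 11.1 CPM and 9.84 CPM in Empty with JG-98, 7.91 CPM and 7.31 CPM in untreated NeuT, and 8.57 CPM and 7.75 CPM in NeuT with JG-98. No NeuT value reached the lowest Empty value.

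In the lid, 7 of 8 genes were lower in NeuT in both comparisons, against 20.8% and 20.0% of all genes, and PSMD8 was called in neither. Among the 7, only PSMD7, which shares 31.2% of its exonic bases with another gene, lost its call in some alternative fits of each comparison. PSMD3, a scaffold subunit of the lid, stood at 177 CPM and 169 CPM in untreated Empty, 156 CPM and 166 CPM in Empty with JG-98, 131 CPM and 138 CPM in untreated NeuT, and 122 CPM and 117 CPM in NeuT with JG-98. The NeuT libraries lay below the Empty libraries throughout, and the 2 lowest were those with JG-98. The line difference was -0.36 ± 0.06 (edgeR adjusted p = 7.22e-05) in untreated cells and -0.44 ± 0.06 (adjusted p = 9.75e-06) with JG-98. PSMD14, the deubiquitinase of the lid, named for its role and with its values known, stood at 186 CPM and 183 CPM in untreated Empty and at 145 CPM and 151 CPM in untreated NeuT. With JG-98 it stood at 191 CPM and 176 CPM in Empty and at 148 CPM and 141 CPM in NeuT. Its 4 NeuT values lay below its 4 Empty values, with differences of -0.32 ± 0.06 (adjusted p = 0.000254) and -0.35 ± 0.06 (adjusted p = 0.000103). PSMD8 was at 416 CPM and 406 CPM in untreated Empty and at 439 CPM and 442 CPM in untreated NeuT, a difference of 0.10 ± 0.06 (adjusted p = 0.171).

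PSMD2, a base subunit that binds ubiquitin-like domains, was the cap gene that rose in NeuT. It stood at 604 CPM and 587 CPM in untreated Empty, 578 CPM and 566 CPM in Empty with JG-98, 672 CPM and 679 CPM in untreated NeuT, and 638 CPM and 714 CPM in NeuT with JG-98. No NeuT library was as low as the highest Empty library. The differences were 0.18 ± 0.06 (edgeR adjusted p = 0.0155) and 0.24 ± 0.06 (adjusted p = 0.00232). The first was called in 4 of 8 fits that each left out 1 library, with an adjusted p of at most 0.138, and the second in all 8. Summed over the class, where PSMD2 weighs most, the ratio of cap to core CPM ranged from 1.5 to 1.63 over the 8 libraries, with the lowest and the highest value both in libraries with JG-98.

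Promoter sequences from RefSeq (build GRCh38.p14, 250 bases before to 50 after the first listed start) were found for 41 of the 47 genes and were searched on both strands for 6 short motifs. CCGGAAG, the core bound by ETS factors, was in 9 of 16 cap promoters and 0 of 10 core promoters, against 10.7% of 27305 promoters of all genes. The core genes PSMA7, PSMB1, PSMB6 and PSMB7, the cap gene PSMD4 and PSMG3 had no promoter found and were not searched. The promoters of PSMC6 and PSMD14 are shown because they belong to cap genes that were lower in NeuT and hold this motif. Capitals mark CCGGAAG and, in PSMD14, a pair of overlapping CCAAT matches on opposite strands. PSMC6 lies on the plus strand at chr14:52706950-52707249 and PSMD14 on the plus strand at chr2:161308175-161308474.
PSMC6: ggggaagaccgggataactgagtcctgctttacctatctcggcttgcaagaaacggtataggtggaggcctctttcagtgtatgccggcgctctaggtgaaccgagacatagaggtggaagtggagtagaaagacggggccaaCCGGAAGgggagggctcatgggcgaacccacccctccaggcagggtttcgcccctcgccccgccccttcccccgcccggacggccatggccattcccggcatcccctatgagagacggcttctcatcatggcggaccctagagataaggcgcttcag
PSMD14: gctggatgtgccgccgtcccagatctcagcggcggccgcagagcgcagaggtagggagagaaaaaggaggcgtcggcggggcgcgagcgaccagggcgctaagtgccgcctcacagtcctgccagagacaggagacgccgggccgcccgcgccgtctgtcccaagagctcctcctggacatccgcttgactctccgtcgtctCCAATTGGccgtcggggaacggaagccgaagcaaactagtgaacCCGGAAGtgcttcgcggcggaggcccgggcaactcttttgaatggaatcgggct
The match begins 107 bases before the start of PSMC6 and 4 bases before that of PSMD14. Cap genes without it, such as PSMD3 and PSMD1, were also lower in NeuT, and PSMD8 holds it and was called in neither comparison. A match is a description of the letters, not of binding.

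The core genes called in untreated cells were of both signs, and their number was near the background of 42.0%. 7 of the 14 differed, 4 lower (PSMA3, PSMA4, PSMB2 and PSMB5) and 3 higher (PSMB6, PSMB7 and PSMA6), with a median of -0.09. The share called higher was level with the 21.2% of all genes. With JG-98 10 of 14 differed and all 10 were lower, with a median of -0.25. There 41.7% of all genes were called, and 20.0% of all genes were called lower. The 4 genes lower in untreated cells were lower again, and none of the 3 higher ones was called. Over the alternative fits with no minimum size, 0 to 3 core genes were called higher in untreated cells, and 2 to 8 lower. With JG-98 they called 7 to 11 lower, and 7 of the 10 were called in every one of them.

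The 3 catalytic subunits had line differences of both signs. PSMB5, which cuts after hydrophobic residues and is the main target of proteasome inhibitors, stood at 207 CPM and 196 CPM in untreated Empty, 202 CPM and 195 CPM in Empty with JG-98, 176 CPM and 188 CPM in untreated NeuT, and 174 CPM and 166 CPM in NeuT with JG-98. Its NeuT values were all below its Empty values, with differences of -0.15 ± 0.06 (edgeR adjusted p = 0.0455) and -0.23 ± 0.06 (adjusted p = 0.00362). PSMB6, which cuts after acidic residues, stood at 128 CPM and 123 CPM in untreated Empty, 126 CPM and 128 CPM in Empty with JG-98, 140 CPM and 146 CPM in untreated NeuT, and 140 CPM and 130 CPM in NeuT with JG-98. Here the NeuT libraries lay above the Empty libraries, by 0.19 ± 0.06 (adjusted p = 0.0126) in untreated cells and by 0.09 ± 0.06 (adjusted p = 0.256) with JG-98. PSMB7, which cuts after basic residues, stood at 206 CPM and 201 CPM in untreated Empty, 225 CPM and 211 CPM in Empty with JG-98, 237 CPM and 237 CPM in untreated NeuT, and 229 CPM and 217 CPM in NeuT with JG-98. The lines were apart in untreated cells, at 0.22 ± 0.05 (adjusted p = 0.00333), and overlapped with JG-98, at 0.04 ± 0.05 (adjusted p = 0.643). These calls in untreated cells were sensitive to single libraries. PSMB5 was called in 2 of 8 fits that each left out 1 library (adjusted p at most 0.416), PSMB6 in 6 (at most 0.145) and PSMB7 in 7 (0.0513 without untreated Empty replicate 2).

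Of the structural core subunits, PSMA3 of the alpha ring stood at 125 CPM and 126 CPM in untreated Empty and at 95.0 CPM and 97.9 CPM in untreated NeuT. With JG-98 it stood at 137 CPM and 121 CPM in Empty and at 103 CPM and 88.0 CPM in NeuT. The lines did not overlap, and the differences were -0.38 ± 0.07 (edgeR adjusted p = 0.000537) and -0.43 ± 0.07 (adjusted p = 0.000176). PSMB2, a beta subunit without catalytic activity, stood at 386 CPM and 380 CPM in untreated Empty and at 324 CPM and 315 CPM in untreated NeuT. With JG-98 it was at 401 CPM and 378 CPM in Empty and at 297 CPM and 279 CPM in NeuT. Every NeuT value was below every Empty value, with differences of -0.26 ± 0.05 (adjusted p = 0.000854) and -0.44 ± 0.05 (adjusted p = 5.02e-06). PSMA6 was higher in untreated NeuT by 0.25 ± 0.10 (adjusted p = 0.0497), at 15.3 CPM and 15.4 CPM against 12.9 CPM and 12.9 CPM in Empty. It shares 14.1% of its exonic bases with another gene, its call held in 2 of 8 fits without 1 library (adjusted p at most 0.167), and with JG-98 the lines overlapped, at 14.6 CPM and 14.5 CPM in Empty and 15.0 CPM and 12.4 CPM in NeuT.

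**Figure D3:**
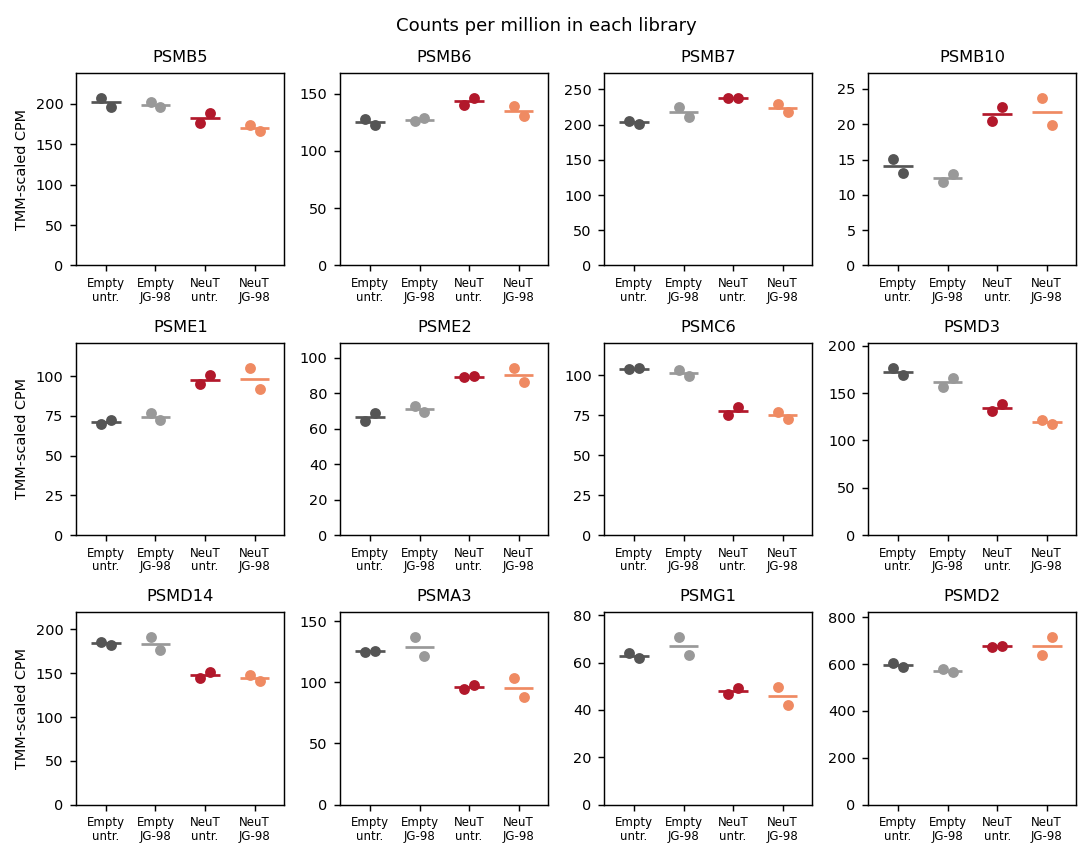
Each panel shows TMM-scaled CPM of 1 gene from 0 upward, with a point for each library, a line for the mean of the 2 libraries and the 4 groups on the x axis. PSMC6, PSMD3, PSMD14, PSMA3, PSMG1 and PSMB5 have every NeuT point below every Empty point, and PSMB10, PSME1, PSME2, PSMB6 and PSMD2 have every NeuT point above.

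Among the 7 assembly factors, 2 were lower in untreated NeuT and 3 with JG-98, all of them factors of the core. Of all genes 20.8% and 20.0% were called lower in these comparisons, and 42.0% and 41.7% in either direction. PSMG1, which pairs with PSMG2 to start the alpha ring, stood at 64.1 CPM and 61.8 CPM in untreated Empty, 70.7 CPM and 63.4 CPM in Empty with JG-98, 46.7 CPM and 49.2 CPM in untreated NeuT, and 49.6 CPM and 42.2 CPM in NeuT with JG-98. The lines did not overlap, and the differences were -0.39 ± 0.08 (edgeR adjusted p = 0.000607) and -0.54 ± 0.08 (adjusted p = 2.51e-05). PSMG4, which pairs with PSMG3, differed by -0.30 ± 0.09 (adjusted p = 0.0155) and -0.54 ± 0.10 (adjusted p = 0.000208), from 18.7 CPM and 18.5 CPM in untreated Empty and 22.9 CPM and 19.7 CPM in Empty with JG-98 to 15.8 CPM and 14.3 CPM in untreated NeuT and 15.1 CPM and 14.2 CPM in NeuT with JG-98. Its groups were apart in both comparisons, it shares 15.0% of its exonic bases with another gene, and the call in untreated cells held in 5 of 8 fits without 1 library (adjusted p at most 0.188). PSMG2 differed by -0.23 ± 0.07 (adjusted p = 0.0119) with JG-98, a call that held in 6 of 8 fits without 1 library (adjusted p at most 0.137), and by -0.13 ± 0.07 (adjusted p = 0.151) in untreated cells. PSMG3 and the base factors PSMD5, PSMD9 and PSMD10 were called in neither comparison, with differences between -0.15 and 0.01.

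PSMB10, PSME1 and PSME2 had the largest positive differences of the 47 genes that were called. PSMB10 is the interferon-inducible counterpart of PSMB7, and PSME1 and PSME2 form the ring that can replace the cap and open the core. The promoters of these 3 genes are shown because each holds the core of the interferon-stimulated response element, GAAA followed by any 2 bases and GAAA, which was in 3.65% of the 27305 promoters and in 6 of the 41 found here. Capitals mark this motif and, in PSME1 and PSME2, TGACNNNGC, the core of the antioxidant response element, which 13.6% of promoters hold. PSMB10 lies on the minus strand at chr16:67936801-67937100, PSME1 on the plus strand at chr14:24135944-24136243 and PSME2 on the minus strand at chr14:24146561-24146860.
PSMB10: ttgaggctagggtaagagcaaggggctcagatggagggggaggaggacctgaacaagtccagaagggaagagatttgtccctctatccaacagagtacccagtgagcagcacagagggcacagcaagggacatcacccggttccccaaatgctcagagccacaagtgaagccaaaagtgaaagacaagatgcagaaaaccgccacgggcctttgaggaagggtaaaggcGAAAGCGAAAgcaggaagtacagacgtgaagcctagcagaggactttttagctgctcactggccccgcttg
PSME1: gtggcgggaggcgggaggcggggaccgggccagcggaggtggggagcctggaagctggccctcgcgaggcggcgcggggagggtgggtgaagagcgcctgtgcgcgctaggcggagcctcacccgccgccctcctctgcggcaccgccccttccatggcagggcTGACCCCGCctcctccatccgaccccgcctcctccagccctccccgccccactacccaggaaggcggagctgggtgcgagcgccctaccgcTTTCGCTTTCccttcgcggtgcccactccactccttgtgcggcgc
PSME2: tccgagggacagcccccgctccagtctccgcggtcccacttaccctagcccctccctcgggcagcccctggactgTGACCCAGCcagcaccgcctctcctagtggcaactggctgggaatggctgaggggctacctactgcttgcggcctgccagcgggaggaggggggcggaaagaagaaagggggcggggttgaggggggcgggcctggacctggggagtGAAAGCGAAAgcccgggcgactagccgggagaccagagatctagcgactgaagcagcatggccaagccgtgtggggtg
All 3 matches read GAAAGCGAAA, on the gene's strand in PSMB10 and PSME2, where they begin 21 and 28 bases before the start, and on the opposite strand in PSME1, where the match begins 5 bases after the start. The other 3 genes with the motif were PSMA4 and PSMG4, which were lower in NeuT in both comparisons, and PSMB4, which was called lower with JG-98, a call that held in 1 of 8 fits without 1 library (edgeR adjusted p at most 0.213). PSME1 and PSME2 are neighbours on chromosome 14, 4394 bases apart. The motif TGACNNNGC was in 12 of the 41 promoters. The box CCAAT was in 19 of them, against 35.7% of all promoters. The core bound by YY1, spelled AAGATGG, was in 8, against 6.06%, and the gamma-activated site TTCNNNGAA was in 4, against 7.88%.

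PSMB10 stood at 15.1 CPM and 13.1 CPM in untreated Empty, 11.8 CPM and 13.0 CPM in Empty with JG-98, 20.5 CPM and 22.4 CPM in untreated NeuT, and 23.7 CPM and 19.9 CPM in NeuT with JG-98. All 4 NeuT libraries lay above all 4 Empty libraries. The difference was 0.61 ± 0.10 (edgeR adjusted p = 0.000155), a level 52.6% higher, in untreated cells and 0.81 ± 0.11 (adjusted p = 1.03e-05) with JG-98. PSMB10 shares 39.4% of its exonic bases with an unnamed protein-coding gene on the same strand that had 452 counts in all. PSME1 stood at 70.2 CPM and 72.3 CPM in untreated Empty, 76.5 CPM and 72.5 CPM in Empty with JG-98, 95.1 CPM and 100.4 CPM in untreated NeuT, and 105 CPM and 91.7 CPM in NeuT with JG-98. PSME2 stood at 64.5 CPM and 68.8 CPM, 72.5 CPM and 69.6 CPM, 89.0 CPM and 89.6 CPM, and 94.4 CPM and 86.6 CPM in the same order of groups. Neither gene had a NeuT value within its Empty range. The differences of PSME1 were 0.46 ± 0.07 (adjusted p = 3.87e-05) and 0.40 ± 0.07 (adjusted p = 0.000141), and those of PSME2 were 0.42 ± 0.06 (adjusted p = 3.6e-05) and 0.35 ± 0.06 (adjusted p = 0.000239). These 3 genes were called higher in both comparisons under every alternative fit with no minimum size.

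A list of 12 other interferon-induced genes moved with them. The list was chosen with earlier results of these data known, so its counts are a description and no independent support. All 12 were higher in untreated NeuT, with a median log2 difference of 1.20, and 11 of 12 with JG-98, with a median of 1.09, where 21.2% and 21.7% of all genes were called higher. The alternative fits with no minimum size called 10 to 12 and 9 to 11 of them. IRF9 in untreated cells was called in 4 of 8 fits without 1 library (edgeR adjusted p at most 0.235), and GBP2 with JG-98 in 1 of 8 (at most 0.215). IRF1, an interferon-induced transcription factor, was higher by 1.29 ± 0.07 (edgeR adjusted p = 4.47e-10) in untreated NeuT. NLRC5, an inducer of antigen presentation genes, was higher by 0.45 ± 0.09 (adjusted p = 0.000784). The part of this list in the differences of PSMB10, PSME1 and PSME2 was not tested.

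The remaining activators and the inhibitor differed little. PSME3, the nuclear activator, stood at 307 CPM and 313 CPM in untreated Empty, 299 CPM and 311 CPM in Empty with JG-98, 328 CPM and 322 CPM in untreated NeuT, and 309 CPM and 303 CPM in NeuT with JG-98. It was called in neither comparison, at 0.07 ± 0.05 (edgeR adjusted p = 0.313) and 0.00 ± 0.05 (adjusted p = 0.977). PSME4, a single-chain activator, stood at 173 CPM and 178 CPM in untreated Empty, at the same 173 CPM and 178 CPM in Empty with JG-98, 160 CPM and 155 CPM in untreated NeuT, and 156 CPM and 169 CPM in NeuT with JG-98. Its NeuT values lay below its Empty values, with -0.15 ± 0.06 (adjusted p = 0.0392) and -0.11 ± 0.06 (adjusted p = 0.147). PSMF1, an inhibitor of the core, stood at 179 CPM and 178 CPM in untreated Empty, 189 CPM and 174 CPM in Empty with JG-98, 201 CPM and 198 CPM in untreated NeuT, and 203 CPM and 201 CPM in NeuT with JG-98. Its NeuT values were all above its Empty values, with 0.16 ± 0.05 (adjusted p = 0.0259) and 0.15 ± 0.06 (adjusted p = 0.0322). Left-out libraries ended these small calls: PSME4 in untreated cells was called in 4 of 8 such fits (adjusted p at most 0.305), and PSMF1 in 4 of 8 (at most 0.15) and, with JG-98, in 3 of 8 (at most 0.26).

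Of the genes matched by symbol alone, PSMC3IP, a partner of the recombinases in meiotic and mitotic recombination, had the largest negative difference of the 47. It stood at 11.0 CPM and 9.66 CPM in untreated Empty, 9.03 CPM and 8.0 CPM in Empty with JG-98, 6.52 CPM and 6.25 CPM in untreated NeuT, and 5.57 CPM and 5.27 CPM in NeuT with JG-98. The lines did not overlap, at -0.69 ± 0.12 (edgeR adjusted p = 0.000113) and -0.65 ± 0.12 (adjusted p = 0.000312), and it shares 30.2% of its exonic bases with another gene. PSME3IP1 was called in neither comparison.

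JG-98 at 1 µM for 12 h changed no proteasome gene past the threshold in either line. The number of the 47 genes called by edgeR was 0 in Empty, where 0.339% of all genes were called, 0 in NeuT, where 3.01% were, and 0 for the average of the lines, where 3.97% were. The test of whether the response differs between the lines called 0 of the 47 and 0.00565% of all genes. At an unadjusted p under 0.05 there were 2, 5, 6 and 4 genes in these 4 comparisons, and the smallest adjusted p-values were 0.399, 0.131, 0.0759 and 0.595. DESeq2 called 0, 0, 1 and 0 genes and limma-voom called 0 in each. The authors' deposited table of limma results also listed 0 of the 47 at an adjusted p under 0.05 in each line. The median SE of a gene was 0.06 in each line on the log2 scale, and apart from PSMB8 no difference was larger than 0.28 in Empty or 0.24 in NeuT.

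**Figure D4:**
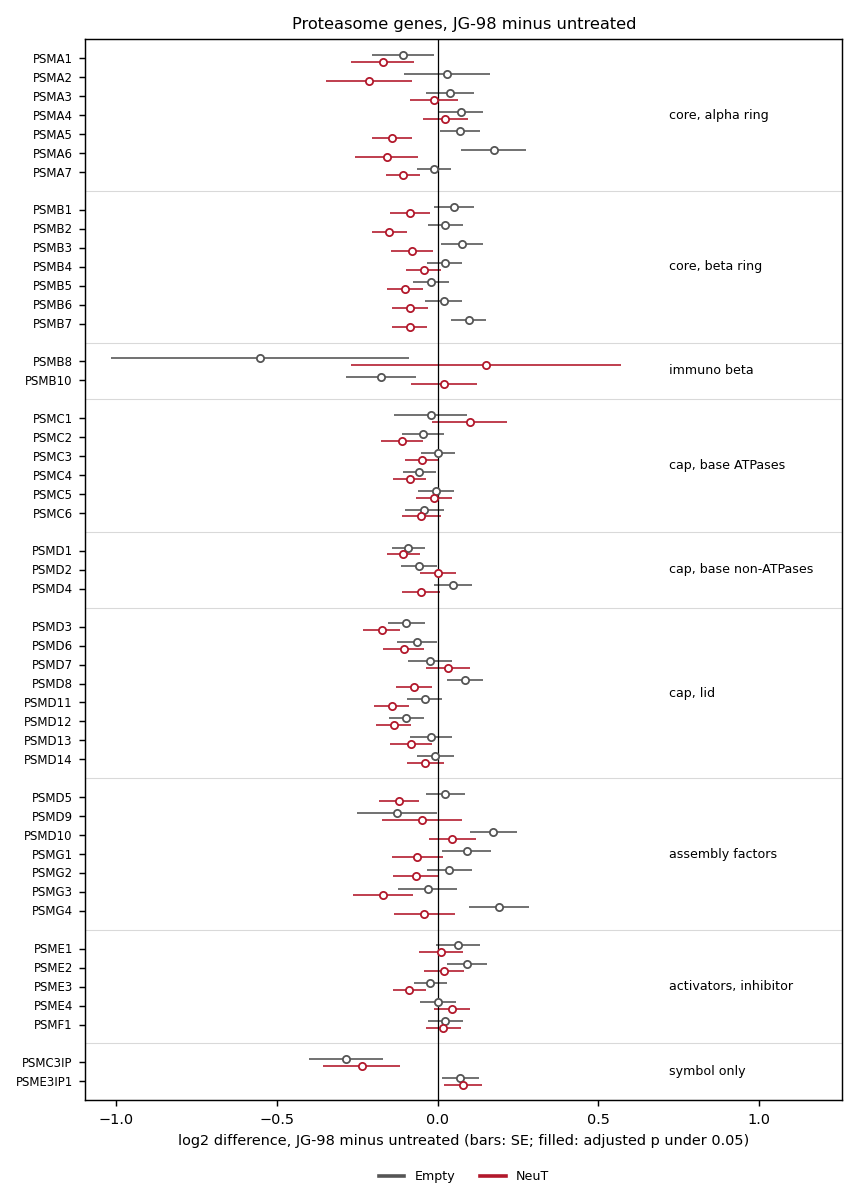
Each row is 1 gene, with the log2 difference of JG-98 minus untreated on the x axis in Empty (grey) and NeuT (red) and bars for the SE; points would be filled at an adjusted p under 0.05, and none is. The NeuT points of the core and cap lie mostly left of 0, while the Empty points of the core lie mostly right of it.

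The signs of these values, none of them called, were as follows. In NeuT 35 of the 47 genes had a value below 0, with a median of -0.07 against 0.00 over all genes, among them 13 of 14 core genes and 14 of 17 cap genes. In Empty 23 were below 0 and 24 above, with a median of 0.00. There 11 of 14 core genes were above 0 and 14 of 17 cap genes below, but 5 of these core genes and 6 of these cap genes changed sign in at least 1 fit without 1 library. In NeuT 3 of the 13 core genes and 2 of the 14 cap genes did. In NeuT the treated and untreated libraries were apart for 19 genes, 18 of them lower and 1 higher with JG-98, and overlapped for 28. Of all genes tested 44.8% were apart in NeuT, 22.9% lower and 21.9% higher, so separation as such was no more frequent among the 47 genes, while more of those apart were lower. In Empty they were apart for 23, 12 higher and 11 lower, near the share of all genes (43.1%, with 20.9% higher and 22.2% lower). In the authors' deposited table the median log2 fold change of the 47 genes was -0.08 in NeuT, with 36 below 0, and 0.01 in Empty, with 21 below 0.

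The genes with the smallest p-values were PSMD3, PSMB2 and PSMD11 in NeuT, PSMC3IP, PSMD10 and PSMG4 in Empty, and PSMD3, PSMC3IP and PSMD12 for the average. None of them was called. PSMD3, whose values are given above, had a response of -0.17 ± 0.06 (edgeR adjusted p = 0.131) in NeuT and -0.10 ± 0.06 (adjusted p = 0.609) in Empty, and its treated libraries lay below its untreated ones in each line. Its average of -0.14 ± 0.04 had an adjusted p of 0.0759, which became 0.036 with DESeq2 and 0.0426 with no filter on low counts. PSMB2 responded by -0.15 ± 0.05 (adjusted p = 0.17) in NeuT, where its groups were apart, and by 0.02 ± 0.05 (adjusted p = 0.936) in Empty, where they overlapped. PSMD11 of the lid, at 198 CPM and 189 CPM in untreated NeuT and 179 CPM and 171 CPM with JG-98, responded by -0.14 ± 0.05 (adjusted p = 0.196). PSMD12, also of the lid, averaged -0.12 ± 0.04 (adjusted p = 0.11) over the lines. It stood at 199.9 CPM and 193 CPM in untreated Empty, 189 CPM and 179 CPM in Empty with JG-98, 159 CPM and 164 CPM in untreated NeuT, and 146 CPM and 148 CPM in NeuT with JG-98, so its treated libraries were below its untreated ones in each line. In Empty PSMD10, an assembly factor of the base, went from 42.6 CPM and 43.9 CPM to 48.5 CPM and 49.1 CPM, by 0.17 ± 0.07 (adjusted p = 0.421). PSMG4 went by 0.19 ± 0.09 (adjusted p = 0.526) and PSMC3IP by -0.28 ± 0.11 (adjusted p = 0.399).

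The interaction value, the response to JG-98 in NeuT minus that in Empty, was below 0 for 38 of the 47 genes, against 8843 of the 17693 genes tested, and none was called. Those below 0 were 14 of 14 core genes, 14 of 17 cap genes and 6 of 7 assembly factors. In at least 1 of the 8 fits without 1 library, 3 of these core genes (PSMA1, PSMA3 and PSMA4), 8 of these cap genes and 0 of these assembly factors turned above 0, so the sign count of the cap rests on single libraries more than that of the core. PSMB7 had -0.19 ± 0.08, PSMA5 of the alpha ring -0.21 ± 0.09 and PSMA6 -0.33 ± 0.14, each with an edgeR adjusted p of 0.595. PSMA5 stood at 147 CPM and 146 CPM in untreated Empty, 156 CPM and 152 CPM in Empty with JG-98, 143 CPM and 139 CPM in untreated NeuT, and 136 CPM and 119 CPM in NeuT with JG-98. Both treated Empty libraries were above the untreated ones and both treated NeuT libraries below. PSMB7, PSMA6, PSMD5 and PSMD8 had the same arrangement, which 2.70% of all genes tested had. The 5 genes were picked for it with their values seen.

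These values rest heavily on 1 library. In NeuT with JG-98 the log2 level of replicate 2 minus replicate 1 had a median of -0.11 over the 47 genes, against -0.02, -0.07 and 0.02 in untreated Empty, Empty with JG-98 and untreated NeuT. Relative to untreated Empty, the core median was -0.13 in replicate 1 and -0.28 in replicate 2, and the cap median -0.29 and -0.40. Without replicate 1 of NeuT with JG-98, the response in NeuT was larger for genes such as PSMA1, PSMA2, PSMA5 and PSMB2. It was -0.37, -0.46, -0.25 and -0.20, against -0.17, -0.21, -0.14 and -0.15 with all libraries. Over the 8 fits that each left out 1 library the highest values of these genes were -0.0018, -0.0096, -0.054 and -0.11. The interaction value without replicate 1 was -0.32 for PSMA5 and -0.49 for PSMA6, against -0.21 and -0.33 with all libraries. These genes were named with their values seen. In such fits the lone library of the group is assumed to vary like those of the other groups.

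**Figure D5:**
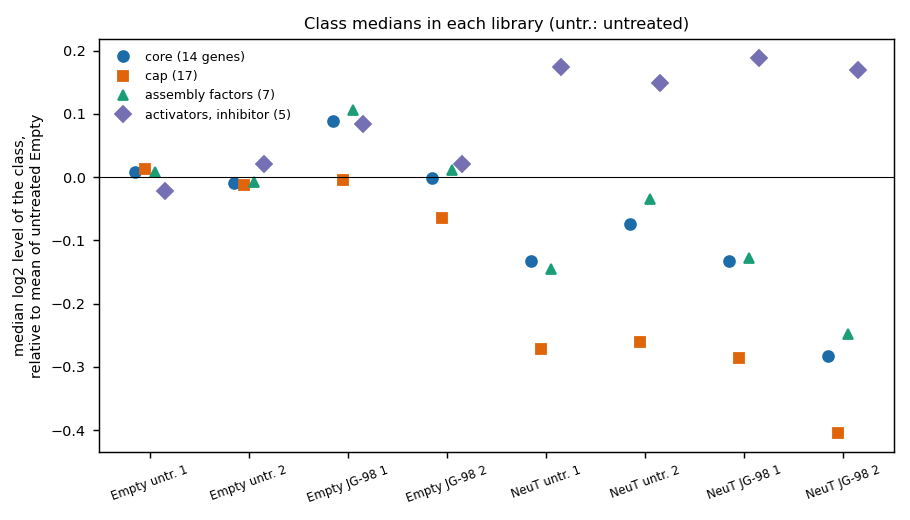
Each point is the median log2 level of the genes of 1 class in 1 library, relative to the mean of the untreated Empty libraries, with the 8 libraries on the x axis. The cap lies between -0.26 and -0.40 in the 4 NeuT libraries and between -0.06 and 0.01 in the 4 Empty libraries, and replicate 2 of NeuT with JG-98 is the lowest for the core, the cap and the assembly factors.

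Of 30 partners of the proteasome outside the symbol rule, 17 differed between the lines in untreated cells, 11 lower and 6 higher in NeuT, and 14 with JG-98, 7 lower and 7 higher. Against 42.0% and 41.7% of all genes called, the second count was near the background. Over the alternative fits with no minimum size the partners gave 4 to 14 lower and 4 to 10 higher in untreated cells, and 6 to 12 lower and 4 to 9 higher with JG-98. UCHL5, a deubiquitinase on the cap, was lower in NeuT by -0.45 ± 0.07 (edgeR adjusted p = 3.49e-05) and -0.47 ± 0.07 (adjusted p = 2.41e-05). ADRM1, the ubiquitin receptor that holds it, was lower by -0.15 ± 0.06 (adjusted p = 0.0347) and -0.26 ± 0.06 (adjusted p = 0.0012), and UBQLN1, a shuttle that carries ubiquitinated proteins to the cap, by -0.40 ± 0.05 (adjusted p = 6.19e-06) and -0.32 ± 0.05 (adjusted p = 8.77e-05). The call of ADRM1 in untreated cells held in 4 of 8 fits without 1 library (adjusted p at most 0.278) and was lost with DESeq2 and with no filter on low counts. All 3 lay on the side of most cap genes. NFE2L3, a relative of NFE2L1, was higher by 0.96 ± 0.09 (adjusted p = 1.04e-07) and 0.97 ± 0.09 (adjusted p = 9.45e-08). The ubiquitin gene UBB was higher in both comparisons, by 0.48 ± 0.06 (adjusted p = 2.53e-06) in untreated cells.

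JG-98 changed 3 of these 30 genes in NeuT, where 3.01% of all genes were called, and 0 in Empty. The count in NeuT ranged over the alternative fits with no minimum size from 0 to 2 lower and from 0 to 6 higher. Among the 3, ECPAS, an adaptor of the cap, rose in NeuT by 0.27 ± 0.06 (edgeR adjusted p = 0.0214) and ADRM1 fell by 0.24 on the log2 scale (SE 0.06, adjusted p = 0.0267). Without 1 library ECPAS was called in 3 of 8 fits (adjusted p at most 0.425) and ADRM1 in 4 of 8 (at most 0.308). For the average of the lines ADRM1 was called lower, and in 3 of 8 fits without 1 library (at most 0.116). NFE2L1 stood at 329 CPM and 340 CPM in untreated Empty, 314 CPM and 341 CPM in Empty with JG-98, 324 CPM and 327 CPM in untreated NeuT, and 359 CPM and 380 CPM in NeuT with JG-98. The treated NeuT libraries were above all others, with a response of 0.18 ± 0.06 (adjusted p = 0.0946) in NeuT and -0.03 ± 0.06 (adjusted p = 0.915) in Empty, neither called. NFE2L2, the related oxidative stress factor, responded by 0.19 ± 0.06 (adjusted p = 0.104) in NeuT and 0.00 ± 0.06 (adjusted p = 0.993) in Empty. POMP, the maturation factor of the core, responded by -0.11 ± 0.06 (adjusted p = 0.457) in NeuT and 0.03 ± 0.06 (adjusted p = 0.945) in Empty and differed between untreated lines by 0.11 ± 0.06 (adjusted p = 0.176).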

How the data were processed

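The authors deposited raw read counts per gene for 8 libraries, made from poly(A)-selected RNA per the labels' protocols. Per the submitters' processing notes the tools were Trim Galore 0.5.0, FastQC 0.11.7, HISAT2 2.1.0, SAMtools 1.9, featureCounts 1.6.3 and limma, on hg38 (GRCh38). The use of strand and of reads with several matches is not given in the sources used here. The authors also deposited a table of log2 fold changes and p-values for JG-98 in each line, which is quoted only where named; its t and B score columns, also made by the authors with limma, were not used.

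Counts were analysed in R 4.3.3 with edgeR 4.0.16: TMM scaling, filterByExpr (17693 of 60617 genes kept, all 47 proteasome genes among them), a robust quasi-likelihood fit with 1 coefficient per group over all 8 libraries, and Benjamini-Hochberg adjustment over all genes tested, with a gene called at an adjusted p under 0.05. The scripts were tested on simulated data. Alternatives used DESeq2 1.42.0, limma 3.58.1, other scaling and filters, a replicate block and fits without each library. Replicates of a group differed beyond counting noise, with a chi-square of 4.52 to 22.0 per gene. The counts limit precision least for the abundant subunits and most for PSMB8.

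The genes, gene lists and naming rule were chosen with earlier results of these data known. Values by library are given, at least for the groups compared, for PSMB5, PSMB6, PSMB7, PSMB10, the activators, PSMF1, the 5 called genes with the largest difference each way in a comparison, or, with fewer than 3 called, the 3 with the smallest p. Of the partner genes, NFE2L1, NFE2L2, POMP and called genes could be named. A gene picked in 1 comparison is also described in others where the rule does not pick it, such as PSMD3, PSMB2, PSMA3, PSMC1, PSMD2 and PSMG4 in a line comparison. PSMD14, PSMD8, the other ATPases, PSMG2, PSMB4, IRF1, IRF9, GBP2 and NLRC5 fall outside the rule. These were named with their values seen. Some genes counted in the lists are not reported here by name. Promoters came from RefSeq and were matched by symbol.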

Additional observations from a re-analysis of the deposited data

How the results depend on the processing

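The number of proteasome genes that differed between untreated lines, 30, ranged from 27 with DESeq2 to 35 in a fit of only the libraries compared, and was 20 with a minimum log2 difference of 0.25. Leaving out 1 library gave 20 to 33. With JG-98 the number, 34, ranged from 27 to 36, was 23 with the minimum difference, and was 26 to 37 without 1 library. Without TMM scaling the calls were 29 lower and 4 higher in untreated cells, so 87.9% of them were lower in place of 73.3%, and 32 lower and 4 higher with JG-98 (88.9% in place of 85.3%). PSMA6, PSMB6, PSMD2 and PSMF1 were then no longer called in untreated cells, and kept their sign. In both line comparisons this setting moved the median of all genes to -0.08; with that median subtracted, an alternative chosen after seeing the data, the medians of the 47 genes were -0.13 and -0.23. 12 genes were called lower in every setting of both line comparisons without a minimum size (PSMC6, PSMD1, PSMD3, PSMD6, PSMD11, PSMD12, PSMD13, PSMD14, PSMA3, PSMB2, PSMG1 and PSMC3IP) and 3 higher (PSMB10, PSME1 and PSME2).

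For JG-98 averaged over the lines the number called was 1 with DESeq2 and 1 with no filter on low counts (PSMD3 each time), and 0 to 4 without 1 library. It was 0 to 9 in NeuT and 0 to 3 for the interaction without 1 library, and 0 in Empty in every setting run. The cause of these changes was not tested. The counts by setting are given without the share of all genes called in the same fit. No call of a named gene reversed its direction in any setting.

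Same-numbered replicates of different groups had correlations between -0.10 and 0.24, so the numbers were not taken as pairs. A fit with the replicate number as a block called 32 genes between untreated lines, 34 with JG-98 in both lines, and 0 for each of the 4 JG-98 comparisons.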

Other observations

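Summed over its genes, the core took between 2213 CPM and 2352 CPM in the 4 Empty libraries and between 1874 CPM and 2100 CPM in the 4 NeuT libraries. The cap took between 3394 CPM and 3568 CPM in Empty and between 3047 CPM and 3234 CPM in NeuT, although PSMD2 was higher there. The activators and inhibitor went the other way, from 793 CPM to 810.2 CPM in Empty and from 851 CPM to 874 CPM in NeuT. As a share of all counts, before TMM scaling, the 47 genes took 0.712% to 0.731% in Empty and 0.596% to 0.649% in NeuT. The lines did not overlap. The TMM factors were 1.02 to 1.03 in Empty and 0.967 to 0.982 in NeuT, so the gap is narrower on the scaled levels.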
